A study of Mus musculus with 11 samples.

Results

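Krt7, Krt8, Krt18, Krt19, Sox9, Spp1, Cftr, Muc1 and Epcam are genes of simple epithelium that are used to recognise pancreatic duct cells and the epithelial progenitors from which endocrine cells arise. They were taken by name as a list of duct keratins, a duct transcription factor and duct surface or secreted proteins, and these 9 genes were followed in all 11 libraries among the 34728 genes of the deposited expression table. All 9 had a value in the table, and 8 of them passed the filter on low values (3 or more libraries with 1 FPKM or more) and entered a fit of 11251 genes. Cftr did not pass. FPKM counts fragments relative to transcript length and to library size, so levels of different genes can be compared per length.

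RNA had been sequenced from GFP-positive cells sorted from dispersed islets of 8-week-old male mice of the strain C57BL/6 x 129SV. WT mice (3 libraries) carried Raptor+/+ with RIP-Cre, in which the rat insulin promoter drives Cre, and the Rosa26-GFP reporter. Diabetic βRapKOGFP mice (4 libraries, genotype BetaRapKOGFP-/- in the labels) carried the same Cre and reporter but had lost Raptor, the scaffold of mTOR complex 1, in cells that had expressed Cre. Euglycemic βRapKOGFP mice (4 libraries) had the same genotype and had received insulin for 4 weeks, from a pellet by the labels and from an osmotic pump by the study's methods. The reporter marks cells with a history of insulin promoter activity, and by the methods the sort did not reach full purity. Nothing in the labels says whether each library came from its own animal, so the p-values below measure only the spread between these libraries.

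Intermediate filaments of simple epithelia are built from pairs of a type II keratin (Krt7, Krt8) and a type I keratin (Krt18, Krt19). In the adult pancreas Krt7 and Krt19 are typical of ducts, whereas Krt8 and Krt18 are shared more widely among epithelial cells, endocrine cells included. Sox9 is the transcription factor that marks ducts and, in the embryo, the multipotent progenitor epithelium, and Cftr, Muc1 and Spp1 encode products of the duct's apical surface and secretion.

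The sorted cells expressed the defining markers of β-cells. Ins1 (47726 to 101797 FPKM), Ins2 and Iapp were the 3 most abundant genes of every library. Rptor, which encodes Raptor, was 1.37 ± 0.422 FPKM in WT (SD, n = 3), 0.690 ± 0.229 in diabetic (SD, n = 4) and 0.491 ± 0.0909 in euglycemic cells (SD, n = 4). The values imply between 9506115 and 16658912 fragments per library. Diabetic replicate 1 stood apart, with 25711 genes above 0 against 13095 to 17329 in the other libraries, and it also had the highest summed level of endothelial markers (56.9 FPKM) and of mesenchymal markers (27.5 FPKM). The 25 acinar markers summed to 13.3 to 79.1 FPKM in WT. They summed to 42.7 FPKM in diabetic replicate 4, 38.4 in euglycemic replicate 2 and 35.8 in euglycemic replicate 3, but to between 1417 and 6992 FPKM in the other 5 mutant libraries. Since these are bulk samples, fewer cells of a type and less RNA per cell cannot be told apart in any value below.

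The list was split by level rather than by name. Krt8 and Krt18 ranked 26 and 37 among the 34728 genes by mean FPKM, Epcam ranked 131 and Krt7 ranked 625, so 4 of the 9 genes were strongly expressed in sorted WT and mutant cells alike. Spp1 (rank 2257) and Krt19 (rank 5803) were low, and Muc1 (10620), Sox9 (10992) and Cftr (23435) were at the edge of detection. Spp1 was higher in both mutant groups than in WT, Krt19 was higher in euglycemic cells, and both genes were among the low ones. Sox9 and Muc1 had higher mean levels in both mutant groups without passing the test. Among the abundant genes, Epcam had a higher mean level in euglycemic than in WT cells and Krt7 a lower one in diabetic than in euglycemic cells, and neither passed the test.

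**Figure D1:**
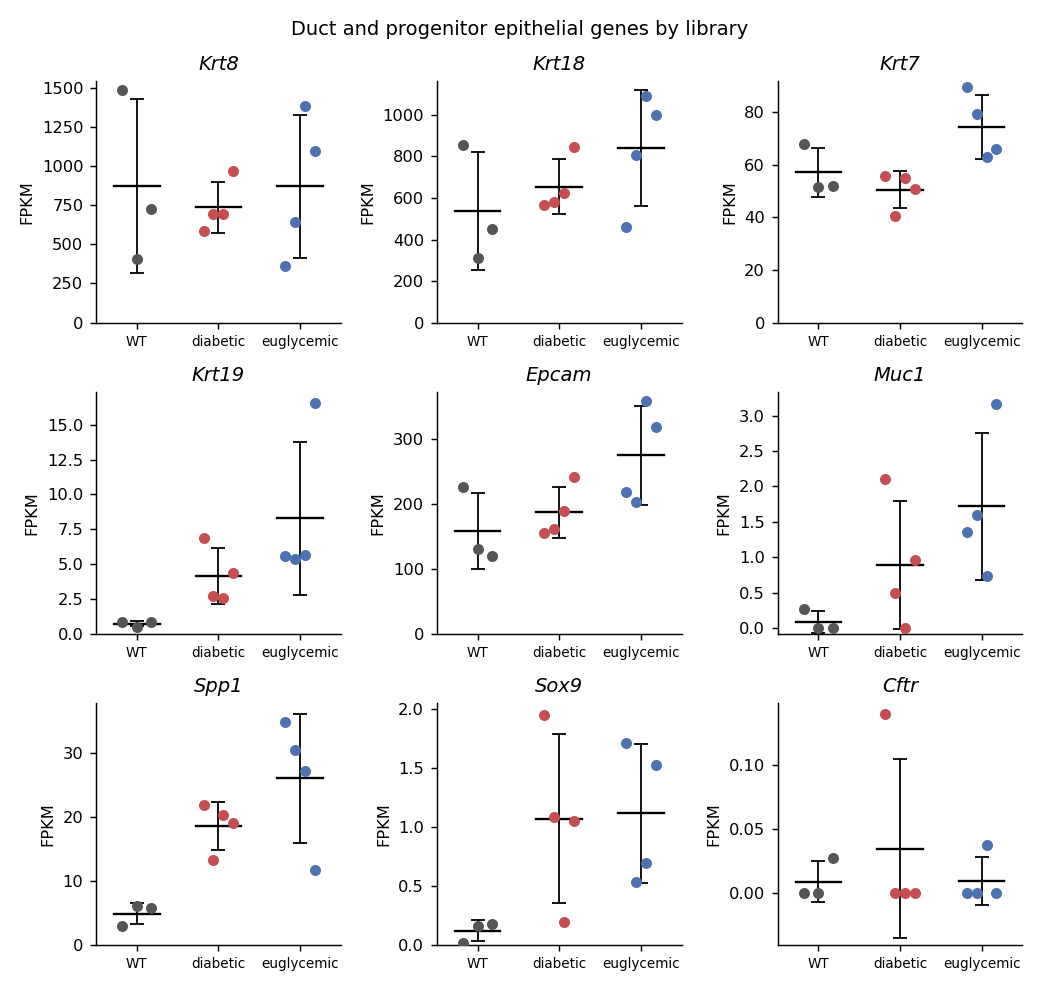
FPKM of each of the 9 genes (y axis, linear, its own range for each gene) in WT, diabetic and euglycemic libraries, 1 point per library, with the group mean as a horizontal line and the SD as an error bar (an error bar can reach below 0 where most libraries are listed at 0). Krt19 and Spp1 lie higher in every mutant library than in every WT library, Krt8 and Krt18 overlap between all groups, and Cftr never exceeds 0.140 FPKM.

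Each comparison used limma on log2(FPKM + 1), with all 11 libraries in 1 fit and Benjamini-Hochberg adjustment over the 11251 genes, and a gene was called where the adjusted p was 0.05 or less and the change 1.5-fold or more. On this scale the fold change of a gene near 1 FPKM is understated, so ratios of mean FPKM are given beside it. In diabetic against WT cells 1 of the 8 genes was called, Spp1, where 0.969% of all genes were called. In euglycemic against WT cells 2 of the 8 were called, Krt19 and Spp1, against 0.551% of all genes. Krt19, Sox9 and Muc1 were below 1 FPKM in all 3 WT libraries and so passed the filter through mutant libraries only, as did 3.53% of all genes tested. The filter thereby favoured their being higher in mutant cells, and counts over the 8 genes that include them are descriptions of these libraries. Both comparisons share the 3 WT libraries. Between diabetic and euglycemic cells limma called none of the 8 (0.00889% of all genes were called), and 2 of the 8, Krt7 and Krt19, had an unadjusted p of at most 0.05, a share near that over all genes (20.6%). An unadjusted p of at most 0.05 was reached by 3 of the 8 in diabetic and 5 of the 8 in euglycemic against WT, beside 11.9% and 13.9% of all genes.

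**Figure D2:**
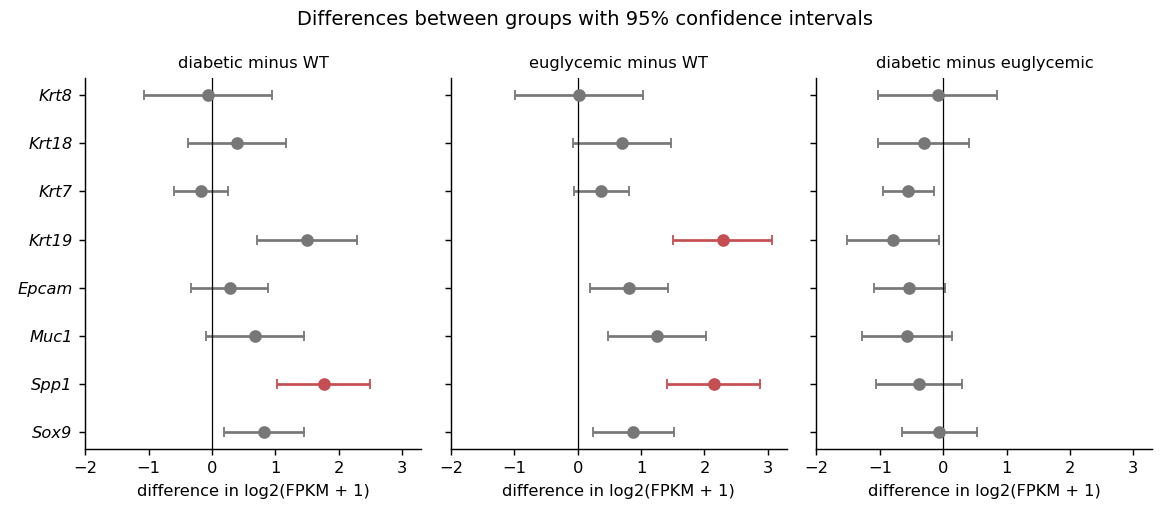
Difference in mean log2(FPKM + 1) between groups (x axis) for the 8 genes in the fit, with 95% confidence intervals from limma; red marks the called genes. The intervals of Spp1 and Krt19 lie above 1 and 0.7, respectively, in diabetic minus WT, and above 1.4 for both in euglycemic minus WT.

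The groups were also compared by how far their libraries separated. In diabetic against WT, 3 of the 8 genes (Krt19, Sox9 and Spp1) were higher in every mutant library than in every WT library, which held for 6.67% of all genes tested. In euglycemic against WT the same was true of 4 of the 8 genes (these 3 and Muc1), against 5.91% of all genes tested. Of these, Spp1 alone had passed the filter in WT libraries as well.

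Krt8, the type II partner of Krt18, lies on the minus strand of chromosome 15 from 101996698 to 102004482 (GRCm38, GENCODE vM21). It had 1485, 405 and 727 FPKM in WT, 585, 696, 696 and 968 in diabetic and 359.6, 645, 1381 and 1098 in euglycemic libraries. The WT libraries alone spanned a 3.66-fold range, with WT replicate 1 highest of all 11, and the groups overlapped completely. The difference from WT was -0.069 ± 0.47 (log2, SE) in diabetic and 0.021 ± 0.47 in euglycemic cells (limma, adjusted p = 0.975 and 0.987). Of the 50-base stretches of Krt8, 29.7% also occur in other genes, of which Krt8-ps and Gm36026 share the most. Reads of Krt8 could thus be split with such copies. Neither of these symbols was found in the deposited expression table.

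Krt18, the type I partner, is the neighbour of Krt8 on the plus strand (chromosome 15 from 102028180 to 102032027). Its FPKM was 857, 309 and 450.3 in WT, 566, 580.4, 625 and 847 in diabetic and 459.9, 808, 1092 and 1001 in euglycemic libraries. The groups overlapped, with WT replicate 1 again high. It differed from WT by 0.39 ± 0.36 (log2, SE) in diabetic and 0.70 ± 0.36 in euglycemic cells (limma, adjusted p = 0.734 and 0.41), with 95% intervals from -0.39 to 1.17 and from -0.080 to 1.47.

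The partners were not in constant proportion. Per length, Krt8 exceeded Krt18 in every WT library, with a ratio of 1.73, 1.31 and 1.61. The ratio was 1.03, 1.20, 1.11 and 1.14 in diabetic libraries. It was 0.782, 0.798, 1.26 and 1.10 in euglycemic libraries. All 8 mutant libraries were below all 3 WT libraries, and in euglycemic replicates 1 and 2 Krt18 exceeded Krt8. A two-sided exact permutation test of the log2 ratio returned p = 0.0286 for the diabetic group against WT, the smallest that 3 against 4 libraries allow, p = 0.0571 for euglycemic against WT and p = 0.343 for diabetic against euglycemic. After Benjamini-Hochberg adjustment over these 3 tests the p-values were 0.0857, 0.0857 and 0.343. The ratio was examined after both genes' values had been seen, and the share of Krt8 stretches found in other genes was not corrected for.

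**Figure D3:**
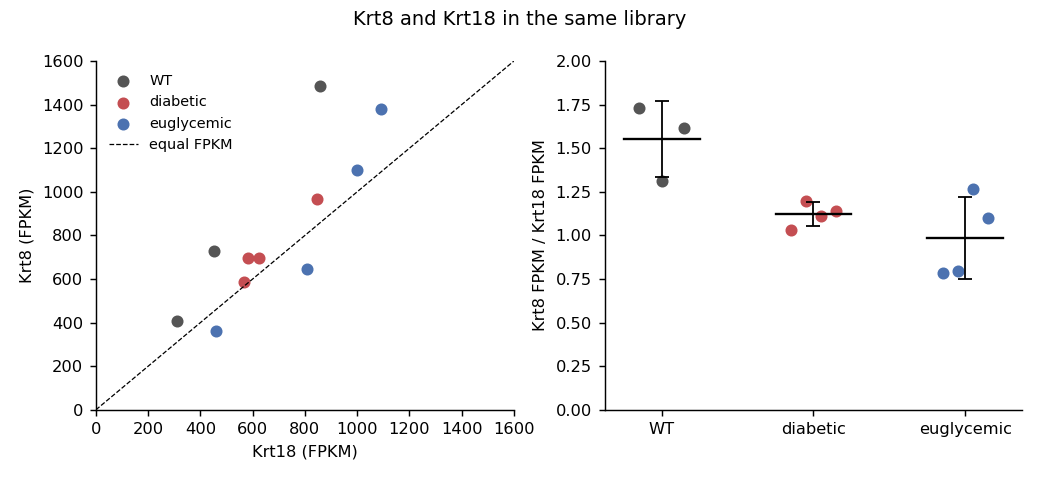
Left, Krt8 FPKM against Krt18 FPKM, 1 point per library, with the dashed line at equal FPKM; right, the ratio of Krt8 to Krt18 in each library with the group mean (line) and SD (error bar). The WT libraries have ratios of 1.31 to 1.73 and the mutant libraries of 0.782 to 1.26.

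Krt7, a type II keratin of ducts, lies on chromosome 15 from 101411043 to 101430313. It was well expressed in the sorted cells, at 67.8, 51.4 and 52.0 FPKM in WT, 55.5, 40.3, 55.0 and 50.7 in diabetic and 89.3, 79.1, 62.8 and 66.1 in euglycemic libraries. All diabetic values were thus below all euglycemic values, whereas both overlapped WT. Diabetic minus euglycemic was -0.55 ± 0.18 (log2, SE; unadjusted p = 0.0108) and did not pass after adjustment (limma, Benjamini-Hochberg adjusted p = 0.154). Against WT the difference was -0.18 ± 0.20 in diabetic and 0.37 ± 0.20 in euglycemic cells (adjusted p = 0.802 and 0.424).

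Krt19, the type I keratin that defines duct cells, lies on the minus strand of chromosome 11 from 100140810 to 100148665. It was 0.810, 0.505 and 0.853 FPKM in WT, 6.85, 2.67, 2.54 and 4.38 in diabetic and 5.61, 5.37, 5.67 and 16.5 in euglycemic libraries. No mutant library overlapped WT, and euglycemic replicate 4 was far above the others. Mean FPKM was 11.5 times that of WT in euglycemic and 5.69 times that of WT in diabetic cells. Euglycemic minus WT was 2.29 ± 0.36 (log2, SE), which passed the test (limma, adjusted p = 0.0149). Diabetic minus WT was 1.496 ± 0.36 with an unadjusted p of 0.00121, and it missed the threshold after adjustment (adjusted p = 0.0815). Without euglycemic replicate 4, whose acinar sum of 6992 FPKM was the highest of all, the euglycemic difference was 1.93 (adjusted p = 0.00639) and the diabetic difference passed as well (1.496, adjusted p = 0.0116). Without WT replicate 2 or 3 the euglycemic call was lost (adjusted p = 0.106 and 0.0868). These values amounted to 14 to 27 whole fragments per WT library and 61 to 367 per mutant library.

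Euglycemic and diabetic cells differed in Krt19 by -0.79 ± 0.34 (diabetic minus euglycemic, log2, SE; unadjusted p = 0.0352), which did not pass (limma, adjusted p = 0.212). Even at its highest, Krt19 stayed far below Krt18, its fellow type I keratin, which had at least 309 FPKM in every library.

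Epcam, which encodes an adhesion molecule of epithelial cells, is found on chromosome 17 from 87635979 to 87651129. Its level in FPKM was 226, 129.6 and 119 in WT, 155, 162, 188 and 241 in diabetic and 218, 203, 358 and 318 in euglycemic libraries. WT replicate 1 lay within the range of both mutant groups, and the other WT libraries lay below every mutant library. Euglycemic minus WT was 0.81 ± 0.28 (log2, SE; unadjusted p = 0.013), and diabetic minus WT was 0.28 ± 0.28 (limma, adjusted p = 0.238 and 0.768). Without WT replicate 1 the euglycemic difference was 1.10 and passed the test (adjusted p = 0.0439).

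Muc1, a transmembrane mucin of apical epithelial surfaces, lies on chromosome 3 from 89229057 to 89233381. It was 0.270 FPKM in WT replicate 1 and was listed at 0 in WT replicates 2 and 3. Diabetic libraries had 2.11, 0.494, 0 and 0.957 FPKM, and euglycemic libraries had 1.36, 1.60, 0.742 and 3.17 FPKM. All euglycemic libraries were above WT, while diabetic replicate 3, listed at 0, was not. The fitted difference from WT was 1.25 ± 0.36 (log2, SE; unadjusted p = 0.00376) in euglycemic and 0.68 ± 0.36 in diabetic cells, and neither passed (limma, adjusted p = 0.158 and 0.487). The depth was small, since the values correspond to 10, 0 and 0 fragments in WT and to 30 to 81 fragments in euglycemic libraries.

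Spp1, which encodes the secreted phosphoprotein osteopontin, lies on chromosome 5 from 104435118 to 104441050. It was 2.93, 6.00 and 5.73 FPKM in WT, 21.8, 13.2, 20.2 and 19.0 in diabetic and 34.8, 30.5, 27.1 and 11.7 in euglycemic libraries. Every mutant library was above every WT library, although euglycemic replicate 4 was the lowest of the mutants. Mean FPKM was 3.80 times that of WT in diabetic and 5.33 times that of WT in euglycemic cells. The difference was 1.76 ± 0.34 (log2, SE; adjusted p = 0.0327) in diabetic and 2.14 ± 0.34 (adjusted p = 0.0149) in euglycemic cells, and both passed the test (limma). Diabetic minus euglycemic was -0.39 ± 0.31 (adjusted p = 0.495). The diabetic call was lost without any 1 of WT replicates 1, 2 and 3 or diabetic replicates 1, 3 and 4, with adjusted p between 0.0627 and 0.132, and the euglycemic call without WT replicate 2 or 3 or euglycemic replicate 2 (adjusted p between 0.0502 and 0.079). In all of these fits the difference stayed between 1.49 and 2.29. Spp1 shares 18.8% of its exon bases with Gm42793 on the same strand, which was at most 0.867 FPKM in any library.

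The 250 bases upstream of the RefSeq start of Spp1, Muc1 and Epcam are shown because Spp1 passed the test, Muc1 had higher mean levels in both mutant groups without passing, and Epcam is an abundant gene of the list whose groups overlapped. They are from RefSeq (GRCm38.p6), each on the plus strand and free of annotated exons, and 7 of the 9 genes were matched in that table. Capitals mark each match, on either strand, to any of 4 short motifs that were searched and that are spelled out after the sequences. No match overlapped another here.
Spp1, chr5:104434861-104435110: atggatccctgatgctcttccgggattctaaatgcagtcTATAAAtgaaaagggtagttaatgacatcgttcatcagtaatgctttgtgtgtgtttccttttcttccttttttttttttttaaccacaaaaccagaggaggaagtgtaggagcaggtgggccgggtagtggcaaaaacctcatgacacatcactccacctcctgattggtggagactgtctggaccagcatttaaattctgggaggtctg
Muc1, chr3:89228806-89229055: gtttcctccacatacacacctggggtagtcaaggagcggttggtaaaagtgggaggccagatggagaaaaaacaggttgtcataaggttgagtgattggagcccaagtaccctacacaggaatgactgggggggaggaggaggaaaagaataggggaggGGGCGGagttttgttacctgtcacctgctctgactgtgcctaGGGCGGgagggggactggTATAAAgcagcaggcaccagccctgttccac
Epcam, chr17:87635729-87635978: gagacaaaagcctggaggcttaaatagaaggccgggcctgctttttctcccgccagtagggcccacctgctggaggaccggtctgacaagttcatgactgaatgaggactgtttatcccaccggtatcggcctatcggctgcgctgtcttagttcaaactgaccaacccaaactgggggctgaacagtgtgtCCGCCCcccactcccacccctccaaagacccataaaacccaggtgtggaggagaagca
The letters TATAAA, known as the core of one promoter element, were found in the Spp1 window, 211 bases before the start, and in the Muc1 window, 31 bases before the start. Of 32536 distinct windows of this length, 12.3% hold this motif on either strand. The letters GGGCGG, read by factors of the Sp family, occurred in 2 places in the Muc1 window and in 1 place on the opposite strand in the Epcam window, and 33.0% of all windows hold it. The AP-1 motif, TGANTCA, is present in 6.73% of all windows and was found in none of these 3. The same holds for the motif of the Notch effector RBPJ, GTGGGAA, which 5.43% of all windows contain. The matches are letters in a window and describe no binding.

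Sox9 lies on chromosome 11 from 112782224 to 112787760. It was 0.0176, 0.163 and 0.178 FPKM in WT, 1.95, 1.09, 0.192 and 1.05 in diabetic and 1.71, 0.537, 0.692 and 1.53 in euglycemic libraries. Every mutant library was above every WT library, though diabetic replicate 3 exceeded the highest WT library by very little. In whole fragments these were 1, 8 and 10 in WT, 87, 44, 11 and 54 in diabetic and 118, 33, 43 and 60 in euglycemic libraries. Mean FPKM was 8.96 times that of WT in diabetic and 9.34 times that of WT in euglycemic cells. The fitted difference was 0.82 ± 0.30 (log2, SE; unadjusted p = 0.0157) in diabetic and 0.88 ± 0.30 (unadjusted p = 0.0106) in euglycemic cells, and neither passed after adjustment (limma, adjusted p = 0.274 and 0.224). At this depth the level of diabetic replicate 3, with 11 fragments, could not be told from that of WT replicate 3, with 10.

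Cftr, the chloride and bicarbonate channel of duct cells, lies on chromosome 6 from 18170687 to 18322768. It was listed at 0 in 8 of the 11 libraries and had 0.0277 FPKM in WT replicate 3, 0.140 in diabetic replicate 1 and 0.0375 in euglycemic replicate 3, which together correspond to 13 fragments. The groups overlapped, and a two-sided exact permutation test of its log2(FPKM + 1) values returned p = 1.0 in each of the 3 comparisons.

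The 4 low genes were set beside the acinar markers, because those also differed between libraries. In the 3 mutant libraries in which the 25 acinar markers summed to no more than in WT replicate 3, Krt19 was 4.38, 5.37 and 5.67 FPKM, above the 0.853 FPKM that was highest in WT. Spp1 was 19.0, 30.5 and 27.1 FPKM in the same libraries, against at most 6.00 in WT. Sox9 was 1.05, 0.537 and 0.692 FPKM there, against at most 0.178 in WT. Muc1 was 0.957, 1.60 and 0.742 FPKM there, against at most 0.270 in WT. In the fit without the 5 libraries rich in acinar markers, Krt19 in euglycemic against WT was 1.93 (adjusted p = 0.0318), Spp1 in euglycemic against WT was 2.39 (adjusted p = 0.0521) and Spp1 in diabetic against WT was 1.81 (adjusted p = 0.157), with 1 diabetic and 2 euglycemic libraries left. With the acinar markers as a covariate in the fit of all 11 libraries, Krt19 was 1.97 in euglycemic (adjusted p = 0.0600) and 1.06 in diabetic against WT (adjusted p = 0.419), so its euglycemic call was lost. Spp1 was 2.34 in euglycemic (adjusted p = 0.0224) and 2.03 in diabetic against WT (adjusted p = 0.0656) in that fit, so its diabetic call was lost. Without diabetic replicate 1, the library that stood apart, diabetic minus WT was 1.68 for Spp1 (adjusted p = 0.0912), 1.26 for Krt19 (adjusted p = 0.221), 0.62 for Sox9 (adjusted p = 0.542) and 0.40 for Muc1 (adjusted p = 0.783).

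**Figure D4:**
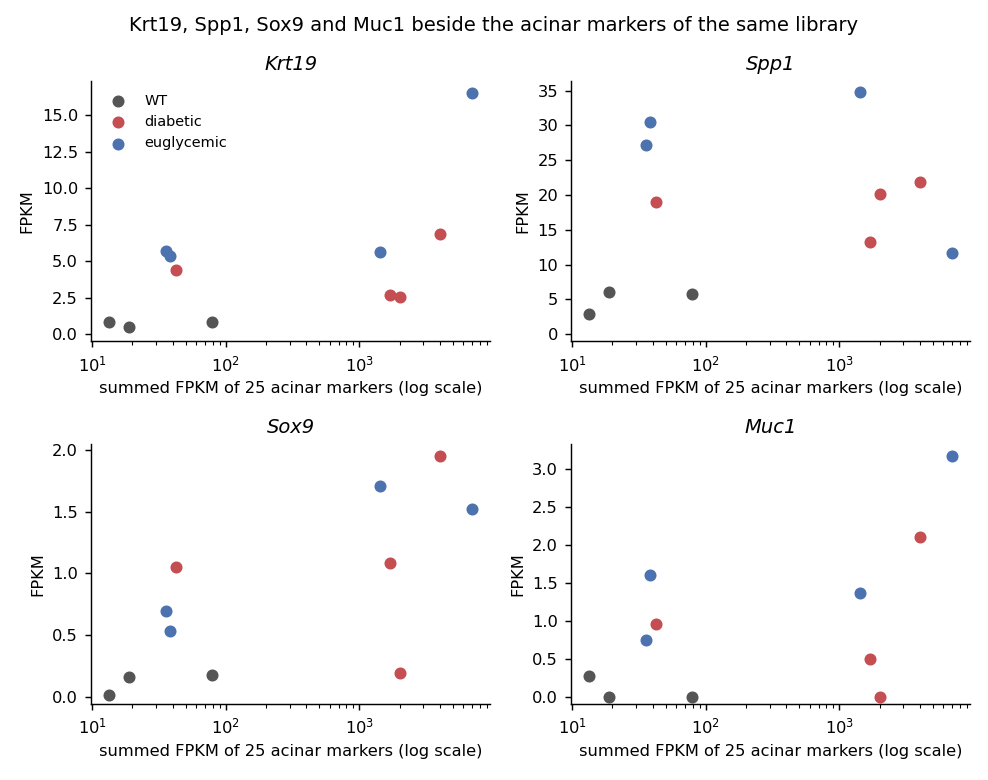
FPKM of Krt19, Spp1, Sox9 and Muc1 (y axis, linear) against the summed FPKM of 25 acinar markers in the same library (x axis, log scale), 1 point per library. The 3 mutant libraries with an acinar sum of 35.8 to 42.7 FPKM lie above all WT libraries for each of the 4 genes.

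Genes of other islet hormones were also higher in mutant than in WT libraries. Somatostatin (Sst) was 1149 to 2469 FPKM in WT, 4868 to 12069 in diabetic and 4774 to 13782 in euglycemic libraries, and limma called it in euglycemic (2.55 ± 0.43, log2, SE; adjusted p = 0.0199) but not in diabetic against WT (adjusted p = 0.0504). The euglycemic call was lost without WT replicate 2 or 3 or euglycemic replicate 1, 2 or 3 (adjusted p between 0.0563 and 0.168). Of the 4 delta and PP cell genes tested, 2 (Ppy, Pyy) were called higher in diabetic and 3 (Ppy, Pyy, Sst) in euglycemic against WT. Over all genes the shares called were 0.969% and 0.551%. An unadjusted p of at most 0.05 was reached by 4 and 3 of the 4, beside 11.9% and 13.9% of all genes. Of 5 alpha-cell genes, 0 in diabetic (2 at an unadjusted p of at most 0.05, beside 11.9% of all genes) and 2 (Gcg, Slc38a5) in euglycemic against WT were called. The summed alpha markers ranged from 1052 to 2442 FPKM in WT and from 3946 to 23783 in mutant libraries, and the summed delta and PP markers from 2088 to 3579 and from 9019 to 26071. Their part in the levels of the duct genes was not tested. Of 21 acinar genes, 1 was called higher in diabetic and 0 in euglycemic against WT, with 13 and 3 at an unadjusted p of at most 0.05 (11.9% and 13.9% of all genes). Of the 21, 4 passed the filter through mutant libraries only. With each library left out the diabetic count ranged from 0 to 3, being 0 without any 1 of the 3 WT libraries or without diabetic replicate 1, 2 or 3, and 3 without euglycemic replicate 4.

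Markers of the remaining cell types are given beside the share of all genes called, 0.969% in diabetic and 0.551% in euglycemic against WT. Plvap was the 1 of 2 endothelial genes tested that was called, higher in diabetic than in WT cells. Summed endothelial markers were 1.98 to 4.82 FPKM in WT, 9.75 to 56.9 in diabetic and 2.13 to 5.51 in euglycemic libraries. Cd79a was the 1 of 8 macrophage and leukocyte genes called, lower in both mutant groups, whereas the sum of the 17 macrophage and leukocyte markers was higher in every mutant library than in every WT library. That sum was 43.1 to 58.9 FPKM in WT, 78.6 to 201 in diabetic and 60.5 to 131 in euglycemic libraries, and its part in the levels of the duct genes was not tested. Of the 8 genes, 4 passed the filter through mutant libraries only, and 4 in diabetic and 3 in euglycemic against WT had an unadjusted p of at most 0.05 (11.9% and 13.9% of all genes). Of the 2 genes tested from the mesothelial list, Msln was called, lower in euglycemic than in WT cells. The study names Msln as a β-cell enriched gene. Gpm6a, the other, differed from WT by 1.14 in diabetic and 0.72 in euglycemic cells (log2). It was not called (limma, adjusted p = 0.352 and 0.495) and passed the filter through mutant libraries only. Slc2a2, the β-cell glucose transporter, was the 1 of 8 β-cell genes called, lower in both mutant groups. None of 11 mesenchymal and stellate genes passed the filter. Their sum was 0 to 0.641 FPKM in WT, 1.47 to 27.5 in diabetic and 0 to 1.13 in euglycemic libraries, so every diabetic library was above every WT library, and its part in the levels of the duct genes was not tested.

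Among other genes of the duct programme 1 was called, where 0.969% of all genes were called in diabetic and 0.551% in euglycemic against WT. Of 29 further duct genes, 17 passed the filter. Anxa2, an annexin that binds membrane phospholipids, was the only one called in diabetic or euglycemic against WT, at 0.214, 0.309 and 0.217 FPKM in WT, 4.89, 2.98, 1.77 and 2.70 in diabetic and 1.997, 2.52, 3.53 and 1.21 in euglycemic libraries. Its difference from WT was 1.66 ± 0.28 (log2, SE; limma, adjusted p = 0.0164) in diabetic and 1.36 ± 0.28 (adjusted p = 0.0485) in euglycemic cells. The diabetic call was lost without any 1 of the 3 WT libraries (adjusted p between 0.0674 and 0.0754), and the euglycemic call without WT replicate 2 or 3, euglycemic replicate 1, 2 or 3 or diabetic replicate 2 or 4 (adjusted p between 0.0697 and 0.241). Anxa2 was 1 of 2 among the 17 genes that passed the filter through mutant libraries only. In diabetic and euglycemic against WT, 7 and 6 of the 17 had an unadjusted p of at most 0.05, beside 11.9% and 13.9% of all genes. Between diabetic and euglycemic cells limma called 0 of the 17, with 4 at an unadjusted p of at most 0.05, a share near that over all genes (20.6%).

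Their levels divided like those of the 9 genes. S100a11, Atp1b1 and Clu were abundant in all groups. Onecut1, Aqp1, Car2, Lcn2 and Wfdc2 never reached 1 FPKM. Duct-defining genes were thus found at every level, from Krt7 at 40.3 FPKM or more to Cftr and Onecut1 near 0, in the same libraries.

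**Figure D5:**
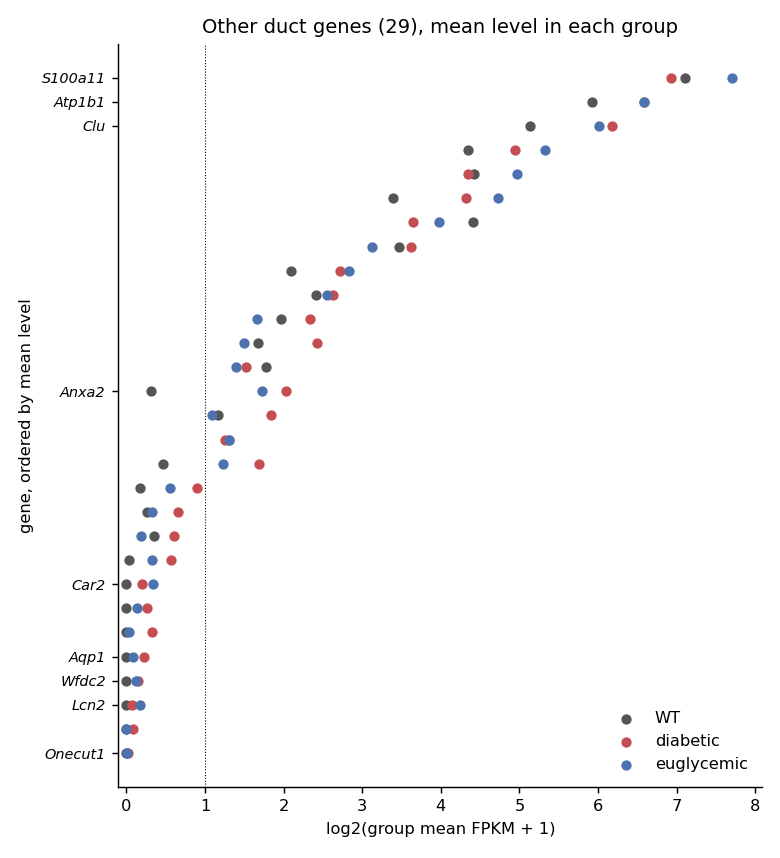
Mean level of each of 29 other duct genes in WT, diabetic and euglycemic libraries, as log2(group mean FPKM + 1); genes are ordered by their mean level, those named in the text are labelled, and the dotted line marks 1 FPKM. Anxa2 lies below the line in WT and above it in both mutant groups, and 12 of the 29 genes did not pass the filter.

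Of 22 pancreatic progenitor genes, 14 passed the filter. Over all genes, 0.969% were called in diabetic and 0.551% in euglycemic against WT. Aldh1a3, a retinaldehyde dehydrogenase linked to immature and dedifferentiated β-cells, was called in diabetic against WT, with 0.400, 0.385 and 1.11 FPKM in WT and 43.2, 14.4, 45.0 and 28.2 in diabetic libraries (4.27 ± 0.65, log2, SE; limma, adjusted p = 0.00915). In euglycemic libraries Aldh1a3 had 12.1, 50.9, 5.61 and 3.66 FPKM, and its difference from WT was 2.91 ± 0.65 (adjusted p = 0.0794). The diabetic call was lost without WT replicate 1 or 2 (adjusted p = 0.0585 and 0.0559), and without euglycemic replicate 4 the euglycemic difference passed (3.37, adjusted p = 0.0288). No other progenitor gene was called against WT, and limma called 0 of the 14 in euglycemic against WT, with 4 at an unadjusted p of at most 0.05, beside 13.9% of all genes. Insm1, Foxa2 and Hnf4a were expressed in all groups, and Nanog, Pou5f1 and Cdx2 were listed at 0 in every library.

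Of 33 genes of epithelial junctions and polarity (Epcam among them), 29 passed the filter. Cldn6, a claudin of tight junctions, was the 1 called, higher in both mutant groups, where 0.969% and 0.551% of all genes were called. In diabetic and euglycemic against WT, 1 and 6 of the 29 had an unadjusted p of at most 0.05, beside 11.9% and 13.9% of all genes. It had 2.85, 3.02 and 3.62 FPKM in WT, 10.6, 8.35, 5.67 and 10.7 in diabetic and 10.9, 10.6, 12.5 and 15.4 in euglycemic libraries. Its difference from WT was 1.21 ± 0.22 (log2, SE; limma, adjusted p = 0.0277) in diabetic and 1.67 ± 0.22 (adjusted p = 0.00605) in euglycemic cells. The diabetic call of Cldn6 was lost without any 1 of the 3 WT libraries or diabetic replicates 1, 2 and 4 (adjusted p between 0.0564 and 0.111), and the euglycemic call held with each library left out. Cdh1, which encodes E-cadherin, was 35.9 to 74.2 FPKM in all libraries and was not called.

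The 8 genes in the fit were also compared by their pattern across libraries. Over the 11 libraries, which include the 3 groups and differ in depth and in acinar markers, log2(FPKM + 1) of Krt8 and Krt18 had a Pearson correlation of 0.84 and that of Krt18 and Epcam of 0.85. Krt19 correlated at 0.91 with Muc1 and at 0.81 with Sox9, and Sox9 correlated at 0.82 with Muc1, while Krt8 correlated with these 3 at -0.21 to 0.13. Spp1 correlated at 0.67 with Krt19, Epcam at 0.65 with Krt19 and 0.51 with Muc1, and Krt18 at 0.57 with Krt19, so the genes did not fall into separate sets. Of all genes in the fit, Cldn6 (0.95), Plin3 (0.95) and Muc1 (0.91) were most like Krt19, and Cd81 (0.97), Fam3c (0.95) and Wac (0.94) were most like Spp1. Krt19 and Lbp were the genes most like Muc1 (0.91 each), followed by Ehd3 (0.86), and Taf5 (0.91), Lbp (0.88) and Paox (0.87) were most like Sox9. Stbd1 (0.97), Dstn (0.96) and Fhl2 (0.95) were most like Krt8, and Tmem251 (0.95), Gsdma (0.94) and Myl12a (0.94) were most like Krt18. Rpl19 (0.96), Plp2 (0.96) and Rnh1 (0.95) were most like Epcam, and ENSMUSG00000092486 (0.96), Akr7a5 (0.95) and Cmbl (0.95) were most like Krt7. These are descriptions over libraries that share their group.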

How the data were processed

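RNA of sorted cells was compared in 3 WT, 4 diabetic and 4 euglycemic libraries. The authors mapped paired reads to mm10 and deposited 1 FPKM value per gene and library. The submitters' processing notes name HISAT2 2.0.4, StringTie 1.3.0 and edgeR, and the study's methods name Tophat and Cufflinks. It is unknown which made the values. No strand setting was found, so overlapping and antisense genes cannot be separated. Entries with the same symbol were reduced to that with the highest mean (34728 of 34745 kept, the others left out).

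Depth was inferred from the low values of 4493 single-exon genes, of which 92.3 to 97.1% per library were whole multiples of 1 fragment within a tolerance of 0.02. Whole fragments of Krt19, Sox9, Muc1 and Cftr were found as the scale that made all 11 values whole within 0.05, and are an inference. Counting error is the only error they cover. For Krt19 and Muc1 the scale implies 2334 and 2690 bases, longer than their annotated exons together (1855 and 2346 bases). By the exon length, Krt19 would have about 11 to 21 fragments per WT library and 48 to 292 per mutant library.

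The fit used limma 3.58.1 in R 4.3.3 (lmFit, eBayes with a trend) on log2(FPKM + 1). On simulated data for diabetic against WT with 11251 genes, 186 of 200 genes changed 4-fold were called with 8 false calls, 78 of 200 changed 2-fold with 5 false calls, and 0 with none changed. The changed genes were drawn only from genes with a mean log2(FPKM + 1) above those of Krt19, Sox9 and Muc1. Recovery of genes at such low levels was not simulated. Ratios, permutations and correlations were computed in Python 3.11.15 with numpy 2.4.6, pandas 2.3.3 and scipy 1.17.1. Gene positions and shared 50-base stretches are from GENCODE vM21 and promoters from RefSeq.

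The genes and lists were chosen with earlier results of these data known. Genes named are the 9, the called genes of each list with the most abundant others, and the 3 genes most like each member. Some genes of the lists are counted but not reported by name here. Alternatives were the filter, pseudocount, scaling, samples in the fit, trend, library weights, replicate block, criteria of the call and each library left out; leaving out the libraries rich in acinar markers, an acinar covariate and the keratin ratio were added after seeing the data.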

Additional observations from a re-analysis of the deposited data

Results flagged for a closer look

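Krt19 was 16.5 FPKM in euglycemic replicate 4, while the other 3 euglycemic libraries had 5.37 to 5.67 FPKM, a gap that exceeded Dixon's 95% limit for 4 samples. The same library had the highest acinar sum (6992 FPKM) and the fewest genes above 0 (13095), and the part of either in the value was not tested. Cftr was 0.140 FPKM in diabetic replicate 1 and 0.0375 FPKM in euglycemic replicate 3, each the only library of its group not listed at 0, and these values stand on 8 and 3 fragments. Diabetic replicate 1 was also the library with the most genes above 0 (25711). As the other 3 libraries of each group had 0 Cftr, any value above 0 would have exceeded the limit. For groups without such ties, chance alone exceeds it in about 1 in 20, and 20 groups of 4 were examined.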

How the results depend on the processing

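The counts of called genes among the 8 depended on the processing, whereas the differences of Spp1 and Krt19 from WT kept their sign in every alternative run (Spp1 1.49 to 2.03 in diabetic and 1.88 to 2.47 in euglycemic, Krt19 1.06 to 2.27 and 1.93 to 3.20, on the log2 scale). In diabetic against WT (1 called) there were 0 without a filter on low values, without the libraries rich in acinar markers, with acinar markers as a covariate and with the replicate block. There were 2 with a pseudocount of 0.1, with only the groups compared and with library weights, and 3 where p was left unadjusted and the fold change still required. In euglycemic against WT (2 called) there were 0 without a filter or with only the groups compared, 1 without the libraries rich in acinar markers (Krt19), 1 with the covariate (Spp1), and 5 with library weights or at unadjusted p with the fold change. Leaving out each library in turn gave 0 to 2 called in diabetic and 0 to 3 in euglycemic against WT. Diabetic against euglycemic gave 1 (Krt19) at unadjusted p with the fold change and 0 otherwise. The causes were not tested. Without the filter, 27403 genes were both fitted and adjusted over. Where 1 group was left with 1 library, it was assumed to vary like the others, and Sox9 and Muc1 could not be fitted without the acinar-rich libraries or at the stricter filter of 5 FPKM.

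The libraries showed no sign of being paired by replicate number, which does not exclude a pairing. Same-numbered libraries of different groups correlated at -0.132 on average in their deviations (10 pairs, -0.368 to 0.212) against 0.0433 for other pairs. With the replicate block, Spp1 in diabetic against WT was 1.91 (adjusted p = 0.056), and Krt19 and Spp1 stayed called in euglycemic against WT (adjusted p = 0.0403 each).

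Krt8 had no stable sign. Diabetic minus WT was 0.0099 in TPM, 0.39 with library weights, 0.35 without the acinar-rich libraries, 0.28 with the covariate and -0.52 to 0.41 with each library left out. Euglycemic minus WT was -0.021 in TPM, -0.13 with the replicate block and -0.43 to 0.50 with each library left out. Diabetic minus euglycemic was 0.031 in TPM, 0.074 with library weights, 0.037 without the acinar-rich libraries, 0.0051 with the covariate and -0.46 to 0.19 with each library left out. Sox9 in diabetic minus euglycemic ranged from -0.25 to 0.18 with each library left out. Cftr in euglycemic minus WT was -0.0028 with a pseudocount of 0.1 and -0.0023 in TPM, and 0 exact tests of Cftr passed under any scaling. In TPM the median of all genes was 0.14 in diabetic minus euglycemic, against 0.0088 in the main fit.

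Of the duct, progenitor, Notch, junction and mesenchymal lists 3 genes were called, and 1 without a filter, 23 with library weights, 0 without the acinar-rich libraries, 26 at unadjusted p with the fold change and 1 to 5 with each library left out. Of the other cell type markers 10 were called, and 3 without a filter, 22 with library weights, 5 with the replicate block, 1 without the acinar-rich libraries, 32 at unadjusted p with the fold change and 3 to 11 with each library left out. Over all genes, 109, 62 and 1 were called in diabetic against WT, euglycemic against WT and diabetic against euglycemic. These became 22, 13 and 0 without a filter, 551, 2287 and 1212 with library weights, 45, 20 and 0 with the replicate block, and 1, 6 and 0 without the acinar-rich libraries. They ranged from 23 to 209, from 10 to 532 and from 0 to 380 with each library left out.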

Other observations

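Genes of the Notch pathway, whose signalling keeps pancreatic progenitors and ducts from endocrine differentiation, gave no calls. Over all genes 0.969% were called in diabetic and 0.551% in euglycemic against WT, and 0.00889% in diabetic against euglycemic. An absence of calls in so short a list does not set it apart from all genes. Of 29 listed, 17 passed the filter, and limma called 0 in each comparison, with 1, 1 and 2 at an unadjusted p of at most 0.05 in diabetic against WT, euglycemic against WT and diabetic against euglycemic, beside 11.9%, 13.9% and 20.6% of all genes. The most abundant was Ncstn, a γ-secretase subunit, at 35.8 to 61.5 FPKM, and the receptors Notch2 and Notch3 stayed below 0.3 FPKM in every library. Hes1, a Notch target, was 1.18 to 6.24 FPKM.

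Genes of a mesenchymal switch gave none either, which in so short a list does not set them apart from all genes. Of 9 listed, 3 passed the filter and limma called 0 in each comparison, with 1 at an unadjusted p of at most 0.05 in each mutant group against WT (11.9% and 13.9% of all genes). Vim, the intermediate filament of mesenchymal cells, exceeded 1 FPKM in 1 of 11 libraries. Of 10 immediate early genes limma called 0 in each comparison, with 1 at an unadjusted p of at most 0.05 in diabetic and 0 in euglycemic against WT (11.9% and 13.9% of all genes), and their sum ranged from 1406 to 3843 FPKM in WT and from 1071 to 5587 FPKM in mutant libraries.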
